A study of Mus musculus with 30 samples.

Results

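Gradient pool 1 of undifferentiated mouse embryonic stem cells (ESC) was set against RNA of the unfractionated lysate of the same cell state, called total RNA here. The members were chosen by their titles: 3 arrays of ESC pool 1 and 3 arrays of ESC total RNA, 6 of the 30 arrays of the series. All 45037 probe sets other than the array's controls were compared, which represent 18193 genes. Both groups were R1 embryonic stem cells kept with LIF, the cytokine that holds them undifferentiated, and both had been exposed to cycloheximide at 150 ug/ml for 15 min, which stops ribosomes on their mRNAs. For pool 1, cytoplasmic lysate was run on a sucrose gradient, 12 fractions were combined into 4 pools, and RNA was prepared from pool 1. Every array was made from 2.5 ug of RNA, so a value is a transcript's share of the RNA loaded and not its amount in the gradient. The 3 arrays of a group came from separate cultures per the labels, and p-values measure the spread between them. Which end of the gradient pool 1 came from is not stated, so pools keep their numbers. Embryoid bodies (EB), aggregates grown for 5 days without LIF and given the same cycloheximide, and ESC pool 4 served for the closing comparisons, with 3 arrays per group.

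On a sucrose gradient, RNA without ribosomes sediments slowest, an mRNA with a single ribosome moves further, and mRNAs with many ribosomes move furthest. How many ribosomes an mRNA carries depends on how often translation starts on it and on the length of its coding sequence. In embryonic stem cells, which divide fast and translate at a low overall rate, such profiles have been used to ask which mRNAs are held back from ribosomes.

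Levels are given as log2(signal + 32) after the 6 arrays had been given the same distribution, and differences are pool 1 minus total RNA on that scale, which understates the change of weakly expressed genes. A gene is called higher or lower when its adjusted p in limma's moderated test is below 0.05. Pool 1 replicate 1 stood apart in overall signal. The deposited mean linear signal was 225.9, 72.39 and 81.31 on the pool 1 arrays, against 156.4, 151.0 and 155.3 on the total RNA arrays (exact two-sided permutation p = 0.5, and 0.1 is the smallest p that 3 against 3 allows). The 3' to 5' signal ratio of control transcripts, a sign of RNA integrity, differed with the group. For Actb it was 4.06 ± 0.18 in pool 1 and 3.10 ± 0.29 in total RNA (log2, SD, n = 3 each, exact p = 0.1), and for Gapdh it was 2.12 ± 0.12 in pool 1 and 1.27 ± 0.19 in total RNA (exact p = 0.1). The part of this ratio in the results below was not tested. Pool 1 arrays had a lower limit of signal, at which 27.0% of probe sets lay on all 3 of them, while total RNA arrays had none. Replicates correlated across probe sets at 0.972 or more in pool 1 and at 0.98 or more in total RNA, against 0.95 to 0.957 between the groups.

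The cells carried the markers of the label. All 10 ESC markers (Pou5f1, Sox2, Nanog, Zfp42, Esrrb, Dppa5a, Tdgf1, Utf1, Fgf4 and Klf4) were measured above the lower limit, with a summed deposited signal of 14400 to 44820 in pool 1 and 28840 to 31670 in total RNA. The 19 fibroblast and feeder-cell markers summed to 256 to 619.9 in pool 1 and 358.8 to 637.6 in total RNA; 4 were at the lower limit on all 3 pool 1 arrays, and none was called. Of 14 primitive endoderm markers, which summed to 137.1 to 372.6 in pool 1 and 184.5 to 263.7 in total RNA, Dab2 was called higher. Its level was low, and its call was lost in each fit that left out 1 library (limma adjusted p up to 0.113). Of 16 neural and mesoderm markers, which summed to 194.9 to 614.7 in pool 1 and 399.6 to 482.3 in total RNA, Myh6 was called lower. Myh6 was at the lower limit on all 3 pool 1 arrays and kept its call in only 2 of the fits that left out 1 library. In bulk arrays such as these, fewer cells of a type and less RNA per cell cannot be told apart.

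Of the 18193 genes, 1199 were called higher in pool 1 (6.59%) and 1298 lower (7.13%). In 2898 genes (15.9%) each pool 1 value lay above each total RNA value, and in 2935 (16.1%) each lay below, called or not. All 1199 genes called higher and all 1298 called lower were among these, so a lack of overlap adds no support to a call. The lower genes had the larger differences: 243 of them differed by at least 1 on the log2 scale, against 74 of the higher genes. The median called difference was -0.68 for lower genes and 0.61 for higher genes. Among the lower genes, 92 were at the lower limit on all 3 pool 1 arrays, so their differences are bounds. By probe set, 2159 were higher (4.79%) and 2319 lower (5.15%), so that 48.2% of calls were higher. That split rests on the scaling. With each array only centred on its median, 209 probe sets were called higher and 2428 lower (7.93% higher), and on the deposited scale limma called 0 higher and 361 lower, with 1012 higher at an unadjusted p below 0.05. Without 1 library, 685, 712 and 692 genes were called higher when total RNA replicates 1, 2 and 3 were left out, and 755 without pool 1 replicate 2. Likewise 768, 810 and 767 genes were called lower without total RNA replicates 1, 2 and 3. All directions below are therefore relative to all probe sets.

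**Figure D1:**
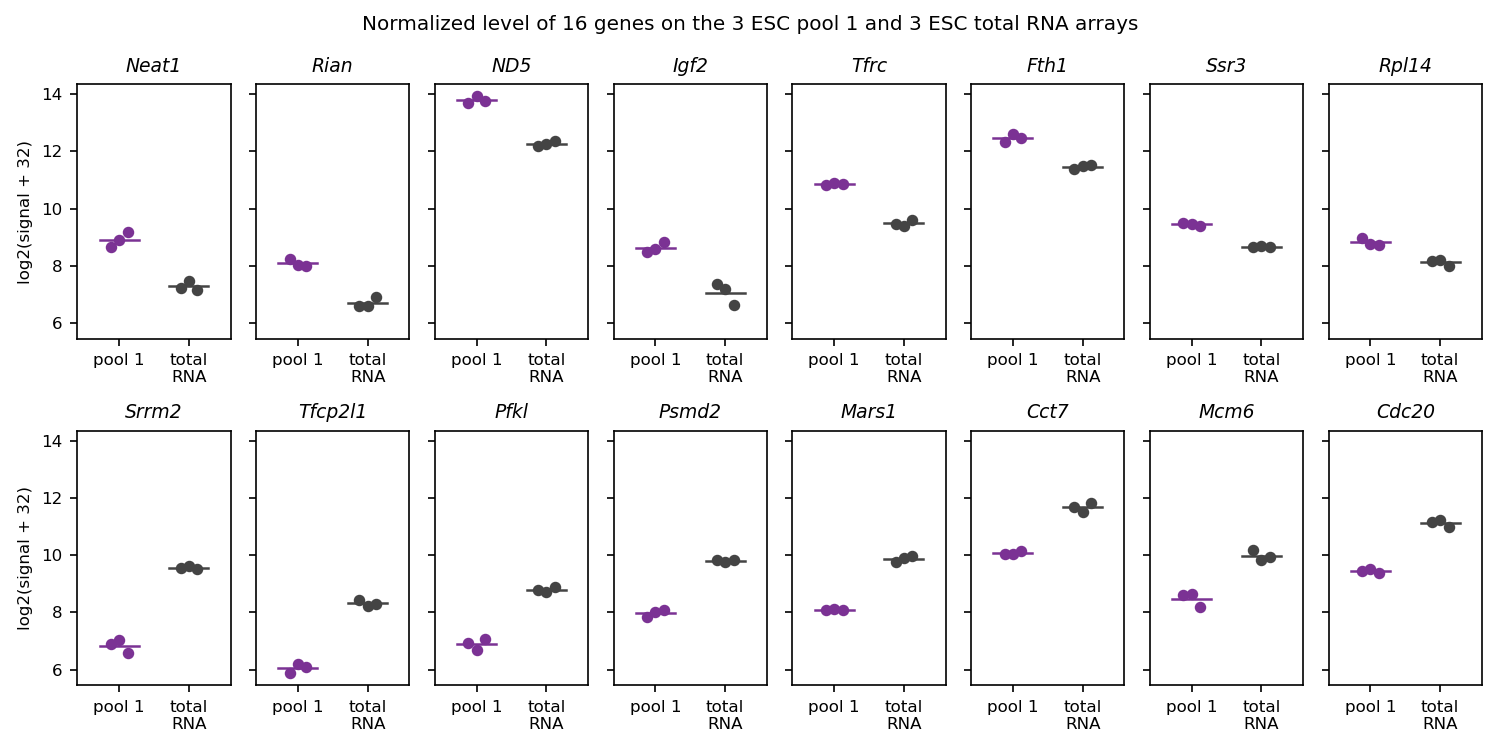
Normalized level (log2(signal + 32), vertical axis) of 16 genes on the 3 ESC pool 1 arrays (left of each panel) and the 3 ESC total RNA arrays (right), with points for arrays and lines for means. In the upper row, from Neat1 to Rpl14, each pool 1 value lies above each total RNA value, and in the lower row, from Srrm2 to Cdc20, each lies below.

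Long noncoding RNAs that stay largely in the nucleus were among the highest genes. Neat1, the RNA scaffold of nuclear paraspeckles, was at 8.67, 8.90 and 9.19 in pool 1, against 7.24, 7.46 and 7.17 in total RNA. Its difference of 1.63 ± 0.15 (SE, limma adjusted p = 0.0029) was the highest of any called gene. Rian, an imprinted noncoding RNA of the Dlk1-Dio3 region, was at 8.24, 8.03 and 8.0 in pool 1, against 6.59, 6.61 and 6.91 in total RNA. Both RNAs had all pool 1 values above all total RNA values. Rian differed by 1.39 ± 0.12 (limma adjusted p = 0.0023). Malat1, an abundant RNA of nuclear speckles, was at 11.55, 11.60 and 11.54 in pool 1, against 9.66, 10.82 and 10.39 in total RNA. Its total RNA values were spread widely, and its difference of 1.28 ± 0.28 (limma adjusted p = 0.036) was no longer called when total RNA replicate 3 or any pool 1 replicate was left out (0.97 to 1.56, adjusted p up to 0.117). Meg3, a noncoding RNA of the same imprinted region as Rian, went the other way: it was at 7.90, 7.74 and 8.09 in pool 1, against 9.0, 8.73 and 9.07 in total RNA, a difference of -1.03. Of the 19 listed long noncoding RNAs, 4 were called higher and 1 lower, and their median difference of 0.03, which was -0.05 on the deposited scale, lay beside -0.01 for all genes. Only 2 of the 4 were called without any 1 pool 1 replicate or without total RNA replicate 3. Over all 1355 genes annotated as long noncoding, 35 were higher (2.58%) and 9 lower (0.664%), smaller shares than among the 16468 protein-coding genes, of which 1155 were higher (7.01%) and 1282 lower (7.78%).

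The host RNAs of small nucleolar RNAs, whose introns release those guides of ribosomal RNA modification, were called higher in 5 of 14 cases and lower in none, with a median difference of 0.42 that was -0.10 on the deposited scale. Snhg4 was at 8.54, 8.68 and 8.59 in pool 1, against 7.73, 7.74 and 7.85 in total RNA. Snhg12 was at 10.34, 10.15 and 10.14 in pool 1, against 9.39, 9.41 and 9.59 in total RNA. These groups did not overlap, and the differences were 0.83 and 0.75. Snhg18, at a low level, differed by 0.75 and kept its call in only 2 of the 6 fits that left out 1 library. The count of 5 fell to 3 without pool 1 replicate 2 or total RNA replicate 1, and to 2 without pool 1 replicate 3 or total RNA replicate 3.

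The mitochondrial genome encodes part of the respiratory chain, and its RNAs are read by ribosomes inside the organelle rather than by cytosolic ribosomes. Its transcript ND5, for a subunit of complex I, was at 13.69, 13.93 and 13.78 in pool 1, against 12.19, 12.26 and 12.35 in total RNA. The difference of 1.53 ± 0.09 (limma adjusted p = 0.0011) had the smallest SE among the 4 highest genes. Of the replication-dependent histone genes, whose mRNAs end in a stem-loop and not a poly(A) tail, 3 were also higher: H1f2 by 0.88, H3c4 by 0.77 and H3c7 by 0.73, and none of the 9 measured was lower. Histone genes have near-identical copies, so the signal of each probe set may come from several of them.

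Among protein-coding mRNAs, the higher genes were led by Igf2, Lamp2, 3110021A11Rik, Fam76b, Tfrc, Xiap, Yipf5, Opa3, Gja1, Tmem209 and Chd1, with differences of 1.57 down to 1.25. Igf2, an imprinted growth factor of the embryo, was at 8.48, 8.57 and 8.85 in pool 1, against 7.36, 7.20 and 6.63 in total RNA. Lamp2, a membrane protein of lysosomes, was at 8.76, 8.04 and 8.38 in pool 1, against 6.88, 6.87 and 6.75 in total RNA. For both, the groups were separated by more than either group's range. Xiap, an inhibitor of caspases with an mRNA known for internal ribosome entry, was at 8.48, 8.48 and 8.19 in pool 1, against 7.19, 7.14 and 6.72 in total RNA. Gja1, the gap junction protein connexin 43, was at 10.23, 10.25 and 10.004 in pool 1, against 8.78, 9.10 and 8.84 in total RNA. Their differences of 1.37 and 1.26 were called in each fit that left out 1 library, which was not so for Yipf5 and Opa3. The call of Yipf5 was lost without any 1 total RNA replicate, and that of Opa3 in 5 of 6 such fits.

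Iron-responsive mRNAs carry a stem-loop that iron regulatory proteins bind, before the coding sequence in ferritin and after it in the transferrin receptor. Tfrc, the transferrin receptor, was at 10.82, 10.89 and 10.86 in pool 1, against 9.48, 9.38 and 9.60 in total RNA. Its difference of 1.37 ± 0.08 (limma adjusted p = 0.0011) was called on a further probe set too, at 0.68. Fth1, the ferritin heavy chain, was at 12.32, 12.59 and 12.46 in pool 1, against 11.39, 11.48 and 11.51 in total RNA. Fth1 differed by 1.00 ± 0.09 (limma adjusted p = 0.0028) and by 1.44 on another probe set. Both mRNAs, with the stem-loop at opposite ends, were thus higher in pool 1. Ireb2, an iron regulatory protein itself, was higher by 0.60, while Aco1, its homolog that doubles as an aconitase, was lower (-0.71). The list holds Ireb2 and Aco1 as well, so its counts are not of stem-loop mRNAs alone. Of the 8 listed, 3 were higher and 1 lower. The list's median of 0.19 turned to -0.06 with median centring and -0.18 on the deposited scale. Aco1 kept its call in 2 of the 6 fits without 1 library.

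Selenoproteins hold selenocysteine, which is read at a UGA codon that otherwise ends translation. Of 17, 5 were called higher and 2 lower, with a median of 0.32 that turned to -0.09 with median centring and -0.21 on the deposited scale. Selenot, a selenoprotein of the endoplasmic reticulum, was at 9.11, 9.14 and 9.16 in pool 1, against 8.07, 8.12 and 8.38 in total RNA. Selenow was at 10.18, 9.84 and 9.79 in pool 1, against 9.01, 9.18 and 9.28 in total RNA. Selenoi, an ethanolamine phosphotransferase, was at 8.03, 7.93 and 7.84 in pool 1, against 7.21, 7.18 and 7.29 in total RNA. These 3 had separate groups, with differences of 0.94, 0.78 and 0.71. The selenophosphate synthetase Sephs2 and the mitochondrial thioredoxin reductase Txnrd2, which was at the lower limit on 2 pool 1 arrays, were lower, at -0.59 and -0.47. Leaving out total RNA replicate 1 or 2 brought the count of higher selenoproteins to 3. The count of lower ones was 0 without any 1 total RNA replicate and 1 without any 1 pool 1 replicate.

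The endoplasmic reticulum takes in secreted and membrane proteins while they are made. Of its machinery, 14 of 34 members were higher (41.2%) and 1 lower, with a median of 0.24 that turned to -0.17 with median centring and -0.30 on the deposited scale. The signal peptidase subunits Spcs1, Spcs2 and Spcs3 were all higher, by 0.44, 0.55 and 0.84. Spcs3 was at 8.62, 9.01 and 9.01 in pool 1, against 8.08, 7.94 and 8.09 in total RNA. Of the 4 Ssr subunits of the translocon-associated complex, 3 were higher. Ssr3 was at 9.51, 9.46 and 9.38 in pool 1, against 8.64, 8.69 and 8.65 in total RNA, although another of its probe sets was called the other way. Sec62, which helps proteins enter after their synthesis, was higher by 0.73, and the catalytic oligosaccharyltransferase subunits Stt3a and Stt3b by 0.50 and 0.47. Of 8 folding factors, namely Hspa5, Hsp90b1, calreticulin, calnexin and 4 disulfide isomerases, 2 were higher, and the median was -0.08. Srp68, a protein of the signal recognition particle, was the lower member, at 7.84, 8.13 and 8.26 in pool 1, against 8.80, 8.96 and 8.71 in total RNA. The count of 14 depended on single libraries: it was 7 without pool 1 replicate 2 and 9 without pool 1 replicate 1 or total RNA replicate 3.

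mRNAs of short proteins, which have room for few ribosomes, were called higher in 8 of 41 cases and lower in 3, with a median of 0.15 that turned to -0.21 with median centring and -0.33 on the deposited scale. Tmsb4x, which binds actin monomers, was at 12.29, 12.12 and 12.21 in pool 1, against 11.26, 11.25 and 11.31 in total RNA. Ost4, a tiny oligosaccharyltransferase subunit, was at 10.18, 9.98 and 10.004 in pool 1, against 9.13, 9.21 and 9.23 in total RNA. Both groups were well apart, with differences of 0.93 and 0.86. The Lsm proteins, which form rings on RNA, did not share a direction, since Lsm1, Lsm3 and Lsm6 were higher and Lsm4 was lower (-0.90). Without pool 1 replicate 3 or total RNA replicate 2, 5 short proteins were higher. At the other end of length, 12 of 54 mRNAs of very large proteins were lower and 3 higher, with a median of -0.21. Prpf8, the largest protein of the spliceosome core, was at 6.77, 7.21 and 7.15 in pool 1, against 8.58, 8.73 and 8.81 in total RNA. The large proteins that were higher were Apc (0.61), Atm (0.56) and Usp9x (0.38). The count of higher members was 1 without total RNA replicate 2 or 3. The count of lower members was 5, 7 and 6 without total RNA replicates 1, 2 and 3, and 7 without pool 1 replicate 2.

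**Figure D2:**
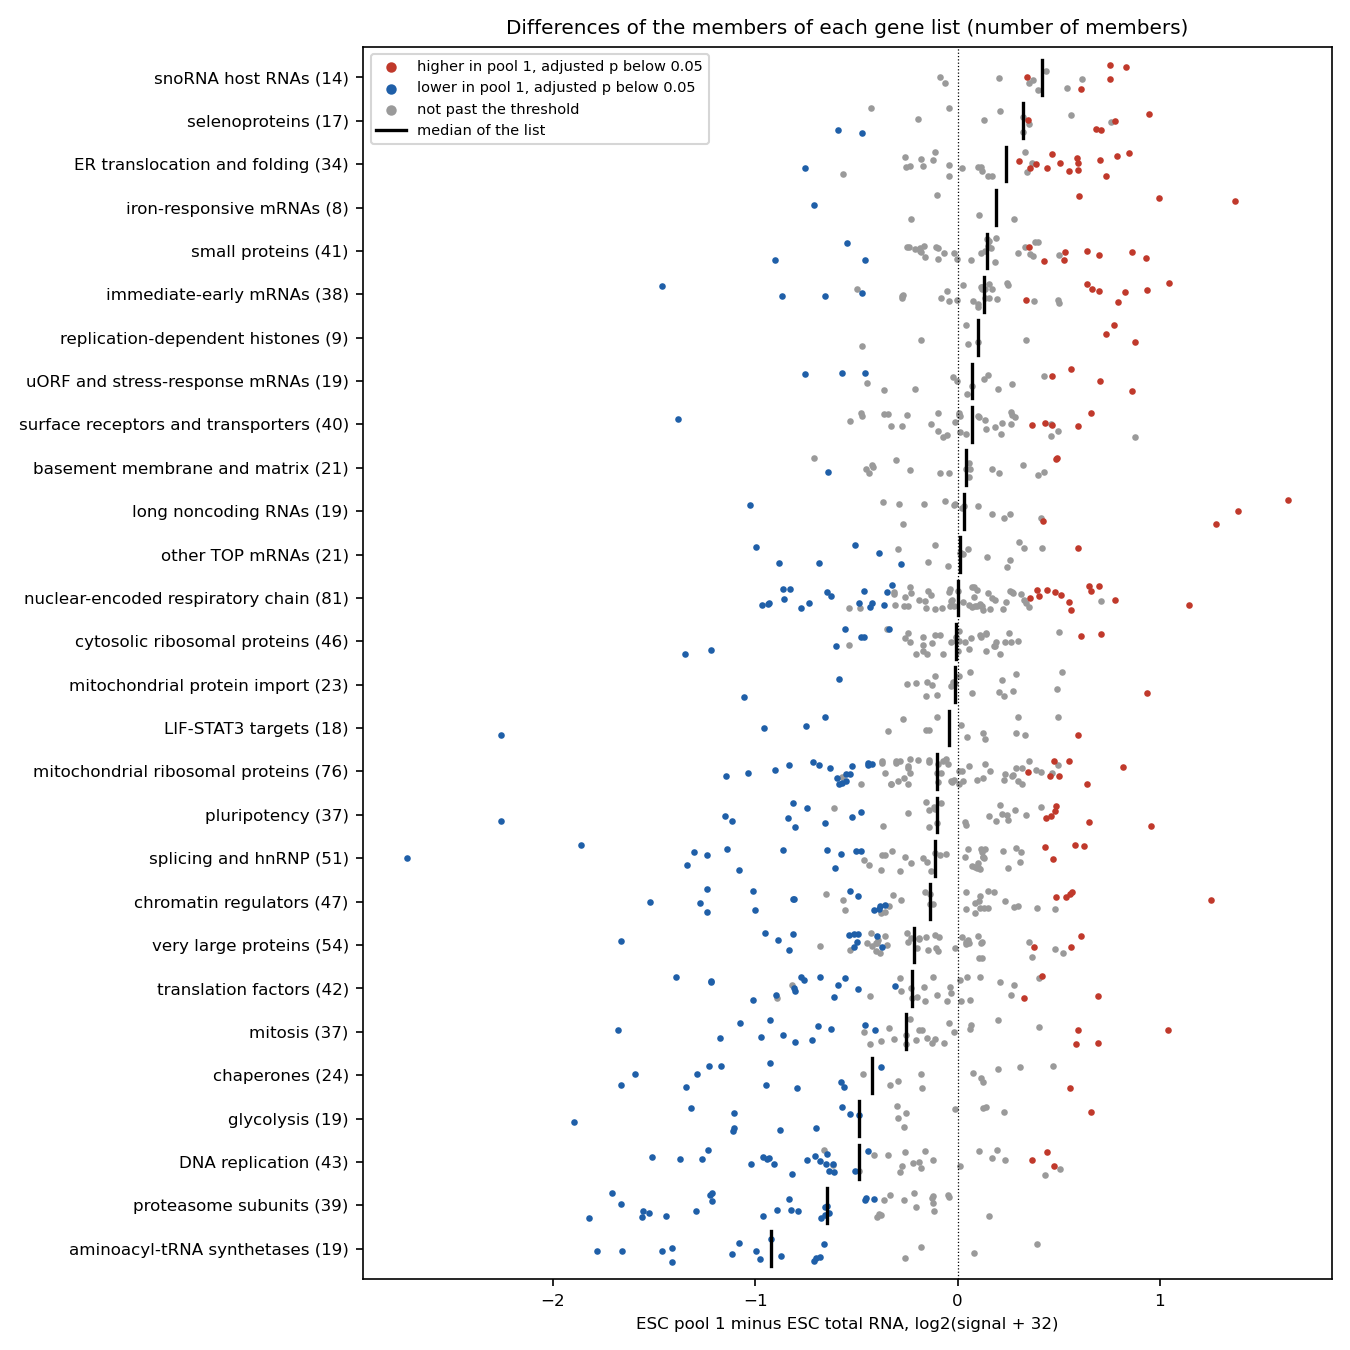
Difference between ESC pool 1 and ESC total RNA (log2(signal + 32), horizontal axis) of each member of 28 gene lists, ordered by median. Points are genes (red called higher, blue called lower, grey not called), and black bars are list medians, from -0.92 for aminoacyl-tRNA synthetases to 0.42 for snoRNA host RNAs.

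The lower side was led by Srrm2, Tfcp2l1, Wwp2, Pfkl, Rcc2, Son, Psmd2, Exosc7, Rnaseh2a, Mars1, Nup133, Prmt1, Thop1, Psmc3 and Ankhd1, with differences of -2.72 to -1.71. All 15 had each pool 1 value below each total RNA value, as the rule that named them required. They were still called when each library was left out in turn. Srrm2, a scaffold protein of nuclear speckles, was at 6.88, 7.05 and 6.57 in pool 1, against 9.53, 9.60 and 9.52 in total RNA, a difference of -2.72 ± 0.13 (limma adjusted p = 0.0011). Son, its partner in those speckles, was at 7.29, 7.16 and 7.65 in pool 1, against 9.33, 9.17 and 9.17 in total RNA, a difference of -1.86. Another Srrm2 probe set, at 6.96, 6.72 and 6.44 in pool 1, against 6.16, 5.89 and 5.75 in total RNA, was called higher by 0.77. Wwp2, a ubiquitin ligase, was at the lower limit on all 3 pool 1 arrays, against 7.24, 7.22 and 7.28 in total RNA. Its means differed 3.86-fold on this scale, and the limit may hide a larger difference. Ankhd1, an ankyrin repeat protein, was at the limit on 1 pool 1 array.

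Aminoacyl-tRNA synthetases, which charge each tRNA with its amino acid, were lower as a group to the greatest extent: 15 of 19 were called lower (78.9%, against 7.13% of all genes), none higher, and the median difference was -0.92. Mars1, the methionine enzyme, was at 8.09, 8.10 and 8.07 in pool 1, against 9.75, 9.89 and 9.97 in total RNA. Aars, the alanine enzyme, was at 8.47, 7.98 and 8.17 in pool 1, against 9.72, 9.97 and 9.92 in total RNA. Vars, the valine enzyme, was at 5.71, 6.34 and 5.82 in pool 1, against 7.55, 7.32 and 7.39 in total RNA. In each case the groups lay more than 1 log2 unit apart on average, and the differences were -1.78, -1.66 and -1.46. The 4 that were not called were Farsb (-0.26), Wars (-0.18), Iars (0.08) and Nars (0.39). Between 10 and 14 members were called in the fits that left out 1 library. The median was -1.41 with median centring and -1.54 on the deposited scale. Both settings moved most lists down, so the kept sign adds no support.

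The proteasome degrades ubiquitin-tagged proteins through a catalytic core and a regulatory cap. Of its 39 measured subunits, 24 were lower (61.5%) and none higher, with a median of -0.65. All 6 Psmc subunits, the ATPases of the cap, were lower, as were 9 of 14 Psmd subunits of the cap. In the core, 6 of 11 Psmb and 3 of 8 Psma subunits were lower. Psmd2 was at 7.84, 8.02 and 8.08 in pool 1, against 9.83, 9.75 and 9.83 in total RNA. Psmc3 was at 7.85, 7.97 and 8.20 in pool 1, against 9.72, 9.66 and 9.78 in total RNA. Psmb5, a catalytic subunit of the core, was at 8.66, 8.31 and 8.68 in pool 1, against 10.17, 10.18 and 10.27 in total RNA. The values of the 2 groups stood far from each other in all 3, at differences of -1.82, -1.71 and -1.66. Psmd7 differed by -1.56 on its brightest probe set and by 0.82 on another, both called. From 19 to 24 subunits were called lower without 1 library.

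Chaperones of the cytosol and the mitochondrial matrix showed 12 of 24 lower and 1 higher, with a median of -0.42. In the CCT chaperonin, the ring that folds actin and tubulin, 6 of 8 subunits were lower. Cct7 was at 10.05, 10.04 and 10.14 in pool 1, against 11.67, 11.52 and 11.82 in total RNA. Fkbp4, a co-chaperone of Hsp90, was at 7.56, 7.93 and 7.80 in pool 1, against 9.40, 9.53 and 9.34 in total RNA. Cdc37, which brings kinases to Hsp90, was at 7.87, 7.88 and 7.71 in pool 1, against 9.05, 9.21 and 9.22 in total RNA. These were lower without overlap, at -1.59, -1.66 and -1.34. The mitochondrial chaperonin Hspd1 was the higher member, at 0.56, and the count of higher members was 0 without any 1 library other than pool 1 replicate 1. Hsp90aa1 was not called on its brightest probe set (-0.33, limma adjusted p = 0.078) while 2 dimmer ones were called lower, at -2.77 and -1.90.

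Glycolytic and pentose phosphate enzymes were lower in 10 of 19 cases and higher in 1, with a median of -0.49. Pfkl, the liver form of phosphofructokinase, which commits glucose to glycolysis, was at 6.91, 6.70 and 7.07 in pool 1, against 8.77, 8.71 and 8.88 in total RNA. Pfkp, the platelet form, was at 8.44, 8.02 and 8.39 in pool 1, against 9.53, 9.59 and 9.69 in total RNA. Aldoa, aldolase A, was at 10.90, 10.90 and 10.995 in pool 1, against 11.9998, 12.11 and 12.01 in total RNA. The enzymes had narrow groups that did not overlap, with differences of -1.89, -1.32 and -1.11. The higher member was no enzyme but the lactate transporter Slc16a1 (0.66).

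Genes that copy DNA were lower in 20 of 43 cases and higher in 3, with a median of -0.49. The 3 higher came to 0 or 1 in each fit that left out 1 library. Of the 6 subunits of the MCM helicase, 5 were lower, and of the 6 subunits of the replicative polymerases 5 were lower and 1, Pola1, higher. Mcm6 was at 8.60, 8.62 and 8.19 in pool 1, against 10.17, 9.83 and 9.94 in total RNA. Lig1, the ligase that joins Okazaki fragments, was at 7.32, 7.20 and 7.52 in pool 1, against 8.74, 8.73 and 8.68 in total RNA. Pole, the leading-strand polymerase, was at 6.87, 6.61 and 6.99 in pool 1, against 8.06, 8.11 and 8.08 in total RNA. All 3 were clear of the total RNA values, at -1.51, -1.37 and -1.26. The origin recognition complex did not move as a whole: of 6 Orc subunits, Orc1 was lower and Orc5 higher. In mitosis, 12 of 37 genes were lower and 4 higher. Cdc20, the activator of the anaphase-promoting complex, was at 9.44, 9.51 and 9.37 in pool 1, against 11.15, 11.23 and 10.98 in total RNA, a difference of -1.68. Kif11, the motor that pushes spindle poles apart, was at 9.14, 9.05 and 9.23 in pool 1, against 8.02, 8.19 and 8.10 in total RNA, a difference of 1.04. Mitotic genes therefore held called members more than 1 log2 unit apart from total RNA in either direction. The count of 12 was 7 without total RNA replicate 1.

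The translation apparatus was split by part. Of 42 translation factors and their regulators, 15 were lower and 3 higher, with a median of -0.23. In the eIF3 complex, the scaffold on which the small ribosomal subunit meets the mRNA, 6 of 7 listed subunits were lower. Eif3d was at 8.91, 9.04 and 9.24 in pool 1, against 10.23, 10.25 and 10.36 in total RNA. Eif6, which keeps the large subunit from joining early, was at 7.46, 7.75 and 7.79 in pool 1, against 9.05, 9.04 and 9.09 in total RNA. Their differences were -1.22 and -1.39, with no overlap. Of the 10 Eif4 genes in this list, which hold the cap-binding complex and its repressors, 1 was lower (Eif4h) and 1 higher (Eif4ebp2, 0.33). Eif4b, counted with the TOP mRNAs below, was lower as well (-0.68), but kept its call in only 1 of the fits that left out 1 library. The count of 15 was 9 without total RNA replicate 2, and the count of 3 was 0 without pool 1 replicate 2 or total RNA replicate 2 or 3 and 1 without replicate 1 of either group.

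Ribosomal protein mRNAs begin with a 5' terminal oligopyrimidine (TOP) tract, a C followed by several pyrimidines, through which the mTOR pathway controls their entry into polysomes. The cytosolic ribosomal proteins were close to the median of all genes: of 46, 7 were lower (15.2%) and 2 higher (4.35%), and their median difference was -0.01, and -0.14 with median centring. Rpl14 was the highest, at 8.98, 8.76 and 8.74 in pool 1, against 8.17, 8.20 and 8.0 in total RNA (0.71 ± 0.10, limma adjusted p = 0.0089). The lowest were Rps4l, a retrogene copy of Rps4x (-1.35), and Rpl12 on a dim probe set (-1.22). Ribosomal protein genes have many near-identical pseudogenes, so single probe sets may mix copies. Among 21 other mRNAs of this class, 6 were lower and 1 higher: the elongation factors Eef1d and Eef2 were at -1.0 and -0.88, and the importin Ipo7 was at 0.60. Without 1 library these 6 came to 2 or 3, and the 7 ribosomal proteins to 4 without pool 1 replicate 2 or total RNA replicate 3. The sequences around the annotated starts are shown because the tract defines the class. They cover each called member of these lists and of the snoRNA hosts that had the run, but only some of those without it. Each line gives 15 bases before the start and 15 from it, 5′ to 3′, from RefSeq (GRCm38.p6), and capitals mark the pyrimidine run where a C at the start is followed by at least 4 bases that are each C or T.
Rpl14 (chr9:120571502-120571531, + strand): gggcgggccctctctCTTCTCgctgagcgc
Fau (chr19:6057932-6057961, + strand): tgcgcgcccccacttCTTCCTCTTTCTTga
Ipo7 (chr7:110018300-110018329, + strand): ttggcgcttctctttCCTTTCgcgccggtt
Snhg8 (chr3:123508322-123508351, - strand): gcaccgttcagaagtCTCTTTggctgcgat
Rpl12 (chr2:32961697-32961726, + strand): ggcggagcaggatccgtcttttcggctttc
Rps9 (chr7:3704026-3704055, + strand): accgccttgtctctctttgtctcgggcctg
Eef2 (chr10:81176616-81176645, + strand): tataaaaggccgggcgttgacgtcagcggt
Those with the run were found on both sides, since Rpl14, Ipo7 and the host RNA Snhg8 were higher by 0.71, 0.60 and 0.61 while Fau, a ribosomal protein fused to a ubiquitin-like domain, was at -0.39. The 3 without capitals have no such run at the annotated base: Rpl12 has a pyrimidine stretch a few bases on, and in Rps9 the annotated start is a T within such a stretch. Also called without the run, and not shown, were Rpl11, Rpl13a, Rpl27, Rps27l, Eif4b, Vim, Snhg5, Snhg12 and Snhg18. Such a run, read on the gene's own strand, stood at the start of 2.51% of all 32851 promoters in the table. It stood at 3.68% of 979 genes called higher, 1.76% of 1082 called lower and 2.93% of 14452 tested genes. In the lists it was found in 8 of 40 ribosomal protein genes, 4 of 16 other TOP genes and 3 of 12 snoRNA hosts.

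**Figure D3:**
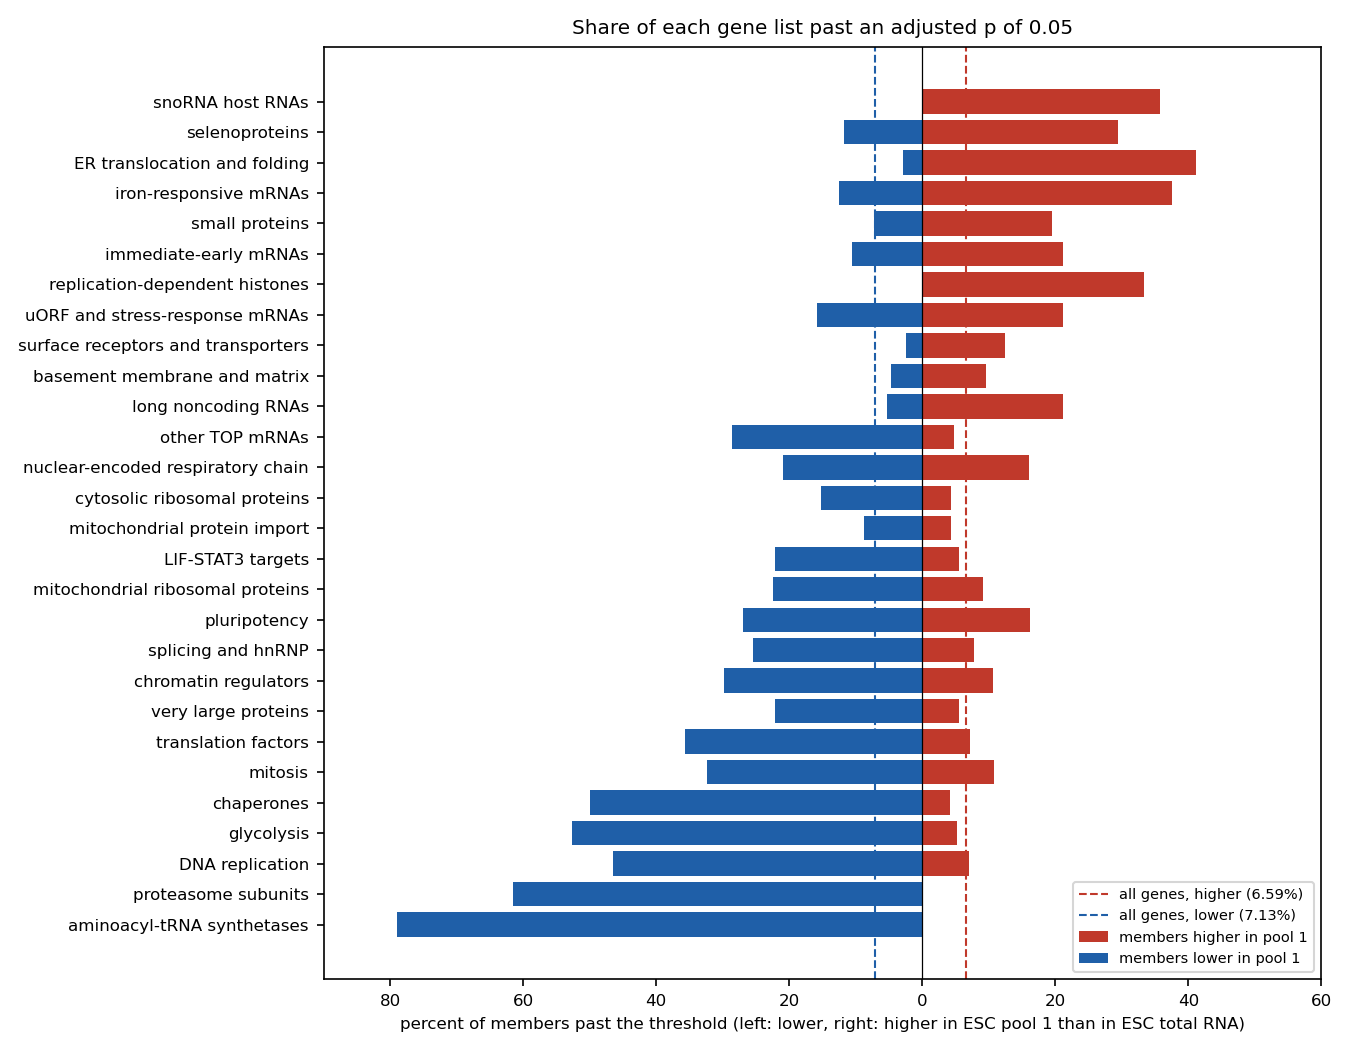
Percent of the members of each of 28 gene lists called higher (red, to the right) and lower (blue, to the left) in ESC pool 1 relative to ESC total RNA, with dashed lines for all genes at 6.59% higher and 7.13% lower. Aminoacyl-tRNA synthetases reach 78.9% lower and the endoplasmic reticulum list 41.2% higher, while respiratory chain genes extend on both sides.

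Nuclear-encoded mitochondrial genes went both ways. Of 81 respiratory chain genes, 13 were higher and 17 lower, and of 76 mitochondrial ribosomal proteins 7 were higher (9.21%) and 17 lower (22.4%). Atp5md, a small subunit of ATP synthase, was at 10.80, 11.29 and 10.80 in pool 1, against 9.88, 9.48 and 10.10 in total RNA. Atp5b, its catalytic beta subunit, was at 10.16, 10.39 and 10.62 in pool 1, against 11.29, 11.36 and 11.33 in total RNA. Subunits of a single enzyme were thus called higher (1.14) and lower (-0.94), and in complex I 6 of 34 Nduf genes were higher and 6 lower. Mrpl12 was at 8.82, 8.90 and 9.08 in pool 1, against 9.98, 10.04 and 10.22 in total RNA, a difference of -1.14. The import pore Tomm40 was lower (-1.05) and the small intermembrane chaperone Timm8a1 higher (0.94). These counts depended on single libraries: higher respiratory chain genes were 5 to 9, higher mitochondrial ribosomal proteins 2 to 4 and lower mitochondrial ribosomal proteins 5 to 11 without each library in turn, lower respiratory chain genes were 11 without pool 1 replicate 2, and the call of Atp5md was lost without total RNA replicate 1 or 2.

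Pluripotency genes, the transcription factors and signals that keep ESC undifferentiated, were lower in 10 of 37 cases and higher in 6, with a median of -0.10. Tfcp2l1, a naive-state transcription factor that LIF and STAT3 induce, was at 5.86, 6.21 and 6.11 in pool 1, against 8.43, 8.22 and 8.30 in total RNA, a difference of -2.26 ± 0.11 (limma adjusted p = 0.0011). Pou5f1 (Oct4) was at 10.36, 10.35 and 10.40 in pool 1, against 11.14, 11.22 and 11.27 in total RNA, a difference of -0.84 (limma adjusted p = 0.0020). Both were lower without overlap. Nanog was at 10.78, 10.85 and 10.73 in pool 1, against 10.52, 10.45 and 10.53 in total RNA, and its difference of 0.28 missed the threshold (limma adjusted p = 0.054). Sox2 (0.21, adjusted p = 0.28 in limma) and Klf4 (-0.15, adjusted p = 0.44) were not called either. Dppa2, a chromatin-binding protein of ESC, was at 10.41, 10.10 and 10.15 in pool 1, against 9.30, 9.27 and 9.23 in total RNA, a difference of 0.96. The core factors Pou5f1, Nanog and Sox2 thus had no direction in common. In the LIF pathway, the receptor Lifr was higher (0.60), and STAT3 itself (-0.96) and its targets Socs3 (-0.75) and Junb (-0.65) were lower. Socs3 kept its call in only 1 of the fits that left out 1 library. The 6 higher pluripotency genes came to 2 without pool 1 replicate 1, total RNA replicate 1 or total RNA replicate 3, and to 3 without replicate 2 of either group. The 4 lower genes of the LIF pathway came to 2 without pool 1 replicate 1 or 2 or total RNA replicate 2 or 3.

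Of 47 chromatin regulators, 14 were lower and 5 higher. Ehmt2, a histone H3 lysine methyltransferase, was at 7.22, 7.09 and 7.42 in pool 1, against 8.92, 8.62 and 8.76 in total RNA, a difference of -1.52. Chd1, a remodeler bound to active genes, was at 8.26, 8.19 and 7.95 in pool 1, against 7.02, 6.93 and 6.69 in total RNA, a difference of 1.25. Of 51 splicing factors and hnRNP genes, 13 were lower and 4 higher, with Srrm2, Son and the U1 protein Snrnp70 (-1.34) lowest, and 4 of 5 Sf3 subunits of the U2 particle lower. Among 38 immediate-early mRNAs, short-lived messages of growth signals, 8 were higher and 4 lower: Ier2 was at 8.56, 8.71 and 9.05 in pool 1, against 10.17, 10.20 and 10.34 in total RNA, while Klf6 and Zfp36l1 were higher by 1.05 and 0.94. Receptors and transporters were higher in 5 of 40 cases and lower in 1, the activin receptor Acvr2b (-1.38). Of 329 Zfp-numbered zinc-finger genes, 27 were higher (8.21%) and 10 lower (3.04%), near or below the shares of all genes. In mRNAs with regulatory upstream reading frames, Azin1 (0.86), Mdm2 (0.70) and Atf4 (0.47) were higher and Asns (-0.75), the asparagine synthetase, lower. Several of these counts rested on single libraries: lower chromatin regulators were 9 without pool 1 replicate 2, higher immediate-early mRNAs 5, 4 and 5 without total RNA replicates 1, 2 and 3, and higher receptors 2 without pool 1 replicate 2 and 3 without any 1 total RNA replicate. Higher immediate-early mRNAs were also 5 without pool 1 replicate 3, and lower ones 2 without any 1 total RNA replicate. Higher splicing genes were 1 without replicate 2 of either group and 2 without replicate 3 of either, and higher Zfp genes 17 without replicate 2 of either. Lower Zfp genes were 5 without total RNA replicate 1 or 2 and 6 without pool 1 replicate 1. Higher chromatin regulators were 3 without pool 1 replicate 2 or any 1 total RNA replicate. Of the mRNAs with upstream reading frames, where 4 of 19 were higher and 3 lower, 2 were higher without pool 1 replicate 2, and 1 was lower without pool 1 replicate 1 or 3 or total RNA replicate 3.

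Probe sets of a gene did not always share a direction. Of 9010 genes with several probe sets, 650 had 2 or more called, and 140 of these (21.5%) had calls in both directions. The widest gaps, chosen after their values were seen, were in Srrm2 (-2.72 and 0.77), Ankrd17 (-2.17 and 0.53), Phf20 (-1.42 and 1.19), Rbm25 (-1.93 and 0.62) and Psmd7 (-1.56 and 0.82). Of the 107 genes named by rule, 70 had several probe sets, and in Srrm2 and Ssr3 another one was called the other way. That is not agreement in the rest, since other probe sets were often not called. None was called of 1 other each in Neat1 and Igf2, 3 each in Rian and Chd1, 4 in Opa3, 2 in Tfcp2l1 and 6 in Son. Called the same way were 2 of 6 others in Malat1, 2 of 5 in Gja1 and in Nup133, and 2 of 2 in Cdc20.

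ESC pool 1 was then set directly against ESC pool 4, the pool at the other end of the numbering. Since the pool 1 arrays serve in both comparisons, their values are given side by side and the overlap is not a result. The log2 3' to 5' ratio of Actb was 4.09, 3.87 and 4.22 in pool 1, against 1.34, 2.02 and 3.54 in pool 4. For Gapdh it was 2.19, 1.98 and 2.18 in pool 1, against 0.83, 1.06 and 2.0 in pool 4. Within pool 4 both ratios were highest in replicate 3. The part of this ratio in the differences from pool 4 was not tested. Of 18193 genes, 1367 were higher in pool 1 than in pool 4 (7.51%) and 1473 lower (8.1%). By probe set these were 2373 (5.27%) and 2429 (5.39%), 49.4% of them higher, against 41 and 770 (5.06%) with median centring and 0 in both directions on the deposited scale, where limma gave 564 higher and 2281 lower at an unadjusted p below 0.05. ND5 was at 13.14, 13.35 and 13.22 in pool 1, against 9.12, 9.16 and 10.47 in pool 4, a difference of 3.65 (limma adjusted p = 0.014), beside 1.53 against total RNA. Neat1 was at 8.45, 8.67 and 8.95 in pool 1, against 6.55, 6.53 and 6.5 in pool 4 (2.16, beside 1.63). Rian (2.14, beside 1.39), Igf2 (2.07, beside 1.57) and Atp5md (2.03, beside 1.14) followed. Of these, ND5 had the widest distance between pools, and its pool 4 replicate 3 lay above the other two. Srrm2 was at 6.69, 6.85 and 6.39 in pool 1, against 10.42, 10.05 and 8.97 in pool 4 (-3.17, beside -2.72), and Son, Tfcp2l1, Pfkl and Nup133 had differences of -2.83, -2.75, -2.49 and -2.49. Malat1 (2.28, limma adjusted p = 0.57) and Yipf5 (0.30, adjusted p = 0.65) were not called against pool 4. The calls of ND5, Srrm2 and Atp5md against pool 4 were lost in 5 of the 6 fits that left out 1 library, with ND5 at 3.51 to 3.62 in those 5, and were kept without pool 4 replicate 3. Pool arrays with the same replicate number shared their lower limit of signal, at 3.8, 2.93 and 3.35 (deposited log2) for replicates 1, 2 and 3. With the replicate number as a block, 495 probe sets were higher and 522 lower, and the calls of ND5, Neat1, Rian, Atp5md, Srrm2 and Pfkl were lost (limma adjusted p of 0.098, 0.061, 0.057, 0.154, 0.082 and 0.080). Igf2, Son, Tfcp2l1 and Nup133 were still called with the block (limma adjusted p of 0.029, 0.039, 0.047 and 0.037). For ND5, Neat1 and Srrm2 the groups did not overlap, so the direction held within each replicate number. Without pool 4 replicate 2, 837 probe sets were higher and 949 lower.

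The same difference in day-5 EB asked where pool 1 of ESC was unlike pool 1 of differentiating cells. The log2 3' to 5' ratio of Actb was 1.82, 2.98 and 2.84 in EB pool 1, against 2.5, 2.06 and 2.21 in EB total RNA. In ESC its means were 4.06 in pool 1 and 3.10 in total RNA. Deposited mean signal was 376.4, 302.1 and 356.7 in EB total RNA, against 156.4, 151.0 and 155.3 in ESC total RNA. The part of these array measures in the interaction was not tested. The ESC and EB differences, which share no array, correlated across the 18193 genes at 0.526 (Pearson), a description over genes that are not independent. The difference between the states passed limma's interaction test in 302 genes above 0 (1.66%) and 309 below 0 (1.7%), above 0 meaning that pool 1 minus total RNA was higher in ESC. This split rests on the scaling: by probe set it was 464 (1.03%) above and 582 (1.29%) below 0 (44.4% above), 1815 and 95 (95.0%) with median centring, and 4590 and 0 on the deposited scale, where 56 were below 0 at an unadjusted p below 0.05. Dazl, which binds mRNAs in germ cells, had an ESC difference of 1.22 and an EB difference of -0.27. Slc30a1, a zinc exporter, had 1.13 in ESC and -0.32 in EB, and Cgas, the cytosolic DNA sensor, 0.81 in ESC and -0.59 in EB. These 3 differences were above 0 in ESC and below 0 in EB. Cgas was at 5.34, 5.58 and 5.74 in EB pool 1, with replicate 1 at the lower limit, which bounds its EB difference. Krt18, a keratin of simple epithelium, had -0.12 in ESC and 1.66 in EB. Snhg3, a snoRNA host, had 0.61 in ESC and 2.19 in EB. Nt5dc2 and Gadd45gip1 had -1.45 and -1.25 in ESC, against 0.26 and 0.45 in EB. For each of these 7 the interaction had a size of 1.40 to 1.78 and an adjusted p in limma of at most 0.0080. With median centring and on the deposited scale, Dazl, Slc30a1 and Cgas were still called. Krt18, Nt5dc2, Gadd45gip1 and Snhg3 kept their sign there and were no longer called. Both settings moved the interaction up as a whole. Its median over genes was 0.018 as reported, 0.2 with median centring and 0.61 on the deposited scale. The calls kept above 0 therefore add no support. Without ESC pool 1 replicate 2, 163 probe sets were above and 295 below 0.

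By list, the interaction lay on 1 side for several groups, relative to all probe sets, beside 1.66% of all genes above 0 and 1.7% below. On the deposited scale no probe set was called below 0, so each call below 0 given here was lost there, and with median centring 95 were left over the whole array. Pluripotency genes had 11 of 37 above 0 and none below, splicing genes 10 of 51 and none, while mitochondrial ribosomal proteins had none above and 12 of 76 below, respiratory chain genes none and 15 of 81, and short proteins none and 6 of 41. Nanog had 0.97 (ESC 0.29, EB -0.68), Sox2 0.76 and Klf4 0.80, with limma adjusted p of 0.0064, 0.045 and 0.019. The synthetases had none above and 2 of 19 below 0, and the proteasome none above and 2 of 39 below. Their median differences were -0.89 and -0.64 in ESC, against -0.82 and -0.43 in EB.

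**Figure D4:**
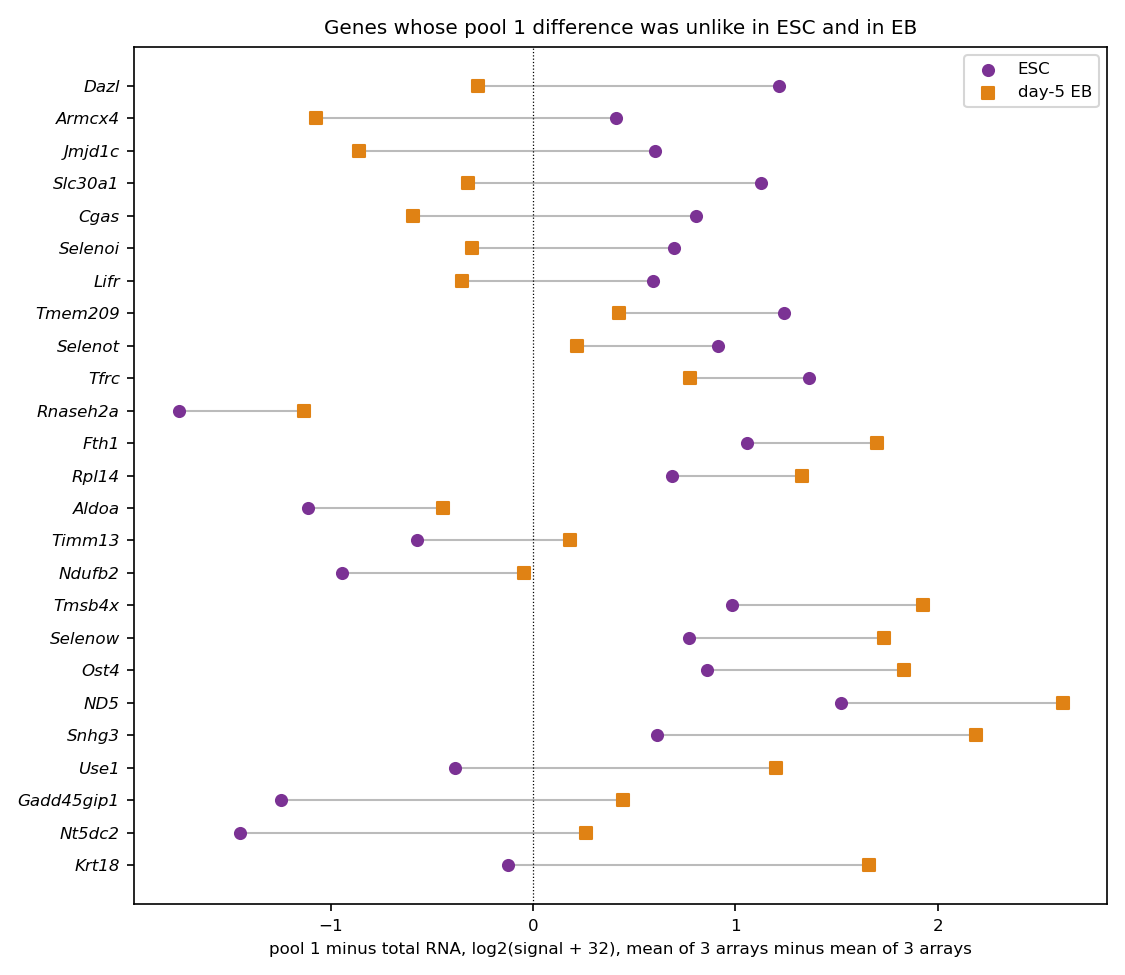
Pool 1 minus total RNA (log2(signal + 32), horizontal axis) in ESC (circles) and in day-5 EB (squares), each the mean of 3 arrays minus the mean of 3 arrays, for 25 genes whose interaction was called, ordered by it. Dazl at the top has 1.22 in ESC and -0.27 in EB, and Krt18 at the bottom has -0.12 in ESC and 1.66 in EB.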

How the data were processed

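The deposited table holds log2 signals of 45101 probe sets on Affymetrix mouse expression arrays; the authors' processing is known only by the names MAS5 and affy, per the submitters' processing notes, with no versions or settings. From the values, arrays are scaled to spike-in controls, and pool arrays have a lower limit of signal that total RNA arrays lack. An offset of 32 was added to each signal on the linear scale before log2 was taken again, and the arrays of each fit were quantile normalized. Two-sided moderated tests came from limma (version 3.58.1, functions lmFit and eBayes, R version 4.3.3). Their p-values were adjusted by Benjamini-Hochberg over 45037 probe sets, and calls used a threshold of 0.05. The fits were ESC pool 1 minus ESC total RNA, the interaction of that difference with the state (12 arrays), and ESC pool 1 minus ESC pool 4. Single array values had exact permutation tests. The number of arrays limits the precision.

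Probe sets were named from the platform's annotation: 34945 had 1 symbol, 932 several and 9160 none. Of them 34741 matched RefSeq by Entrez identifier. A gene is represented by its probe set with 1 symbol and the highest mean over the 6 arrays. Named by rule were the 15 highest and 15 lowest called genes without overlap, in each list the called members that differed most (up to 3) (where none was called, the member with the highest mean), and up to 5 genes per direction in the other fits; other names were chosen after their values were seen. The members and lists were chosen with earlier results of these data known. Lists are described by counts and medians with no test of the list. Protein lengths were planned and are not used here. The fits were tested on simulated data. Alternatives were offsets of 16 and 64, median centring, the deposited scale, scaling before the offset, dropping the lowest 40% of probe sets or those at the limit, a variance trend, the mean over a gene's probe sets, a replicate block, and leaving out each array.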

Additional observations from a re-analysis of the deposited data

Results flagged for a closer look

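Of the 107 genes named for ESC pool 1 minus ESC total RNA, 15 had a difference that was unlike the same difference in day-5 EB, by limma's interaction test on 12 arrays (adjusted p below 0.05). Over all 18193 genes the shares were 1.66% above 0 and 1.7% below. Most of the 107 were named for a large ESC difference, and the interaction uses the same ESC arrays. That choice favors such calls, so the count of 15 is a description only. Above 0, with pool 1 higher relative to total RNA in ESC than in EB, were Selenoi (1.0), Lifr (0.943), Tmem209 (0.816), Selenot (0.699) and Tfrc (0.585). Selenoi and Lifr had opposite signs, 0.70 and 0.59 in ESC and -0.30 and -0.35 in EB.

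Below 0 were ND5 (-1.1), Ost4 (-0.973), Selenow (-0.965), Tmsb4x (-0.946), Ndufb2 (-0.899), Timm13 (-0.757), Aldoa (-0.67), Rpl14 (-0.644), Fth1 (-0.642) and Rnaseh2a (-0.618). ND5 was at 1.52 in ESC and 2.62 in EB, and Ndufb2 at -0.94 in ESC and -0.05 in EB.

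These directions are relative to all probe sets. The 5 above 0 kept their sign with median centring, where 4 were called, and on the deposited scale, where 5 were called. Of the 10 below 0, 7 kept their sign with median centring and 1 on the deposited scale, and none was called under either. Both settings moved the interaction up as a whole, to medians over genes of 0.2 and 0.61. The signs and calls kept above 0 therefore add no support.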

How the results depend on the processing

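For ESC pool 1 minus ESC total RNA, median centring gave 209 probe sets and 58 genes higher, and the deposited scale 0 probe sets higher and 361 lower, and 0 genes higher and 174 lower. The median difference over genes was -0.0091 in the values reported, 0.0027 with median centring and -0.12 on the deposited scale, and over probe sets it was -0.0028, 0.13 and -0.0015 in the same order. The replicate block gave 1329 probe sets higher and 1531 lower, and 762 genes higher. Same-numbered pool 1 and total RNA arrays had deviations that correlated at 0.0025, -0.00031 and 0.021. Those of pool 1 and pool 4 correlated at 0.023, -0.0021 and 0.054, although these arrays shared their lower limit of signal by number. Values near 0 therefore cannot decide whether same-numbered arrays came from a shared culture. Leaving out 1 library gave 1195 to 1654 probe sets higher and 1403 to 1847 lower, and 685 to 894 genes higher and 767 to 1038 lower. Of the 107 named genes, 86 were called without each library in turn. All 107 kept their side of the threshold with offsets of 16 and 64 and with scaling before the offset, 99 with the block, 67 with median centring and 23 on the deposited scale. Values changed sign on the deposited scale for Serpinh1 (-0.077), Sparc (-0.12) and Thy1 (-0.081), and with the mean over probe sets for Ssr3 (-0.10). For the interaction, offset 16 gave 144 above and 255 below 0, offset 64 gave 734 above, median centring 1815 and 95, the deposited scale 4590 and 0, probe sets above the limit alone 881 and 985, and the block 286 above. Leaving out 1 library gave 163 to 517 above and 280 to 556 below. For pool 1 minus pool 4, median centring gave 41 higher and 770 lower, the deposited scale 0 and 0, dropping the lowest 40% 3915 and 3929, probe sets above the limit alone 3685 higher, and the block 495 and 522. Leaving out 1 library gave 837 to 1868 higher and 949 to 1610 lower. The causes were not tested. Signal at the lower limit bounds what can be measured in pool 1.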
